A study of Mus musculus with 9 samples.

Results

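The genes described here make cholesterol or handle it in the liver. They are 28 listed genes, matched by gene ID to their symbols, each with an overall mean of at least 10 normalised reads in both deposited tables, among 12477 genes that reach that level in both and 16521 genes in either table. They comprise 19 synthesis enzymes, 4 genes that control the sterol sensor, and 5 genes of sterol transport and esterification. Liver RNA was sequenced from C57BL/6 mice in 3 groups of 3 samples. The normal group, titled wt in the labels, received saline. The model group was fed a methionine-choline-deficient (MCD) diet, which lacks nutrients that the liver needs to export fat and which produces fatty liver with inflammation. The SAR group was fed the same diet and also given a high dose of sarsasapogenin (SAR), a plant steroidal sapogenin, whose amount the labels do not give. The labels used here do not give age, sex, the diet of the normal group or any vehicle given to the model group. Whether the samples of a group are separate mice is not labelled. The p-values cover just the spread among the samples at hand, and that spread may be technical.

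Cholesterol is built from acetyl-CoA in the cytosol and endoplasmic reticulum: the mevalonate steps give farnesyl diphosphate, squalene synthase and 2 further enzymes turn it into lanosterol, and a chain of demethylases, isomerases and reductases turns lanosterol into cholesterol. When sterols are scarce, Scap carries the SREBP2 precursor out of the endoplasmic reticulum and the cleaved factor switches on most of these enzymes, and when sterols are ample, the Insig proteins hold the complex back. The liver disposes of cholesterol through Abcg5 and Abcg8 into bile, through Abca1 into high-density lipoprotein, and through conversion to bile acids.

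The promoters of 7 of these genes are shown. Of these, 6 belong to genes that were higher in SAR than in normal liver, namely enzymes and the regulator Insig1. Sqle and Fdft1 were also higher and had no promoter entry. Insig2, a regulator with another pattern, was lower in the model group. Each sequence is the stretch of 150 bases before the annotated start in RefSeq (GRCm38.p6, whereas the deposited tables used mm9), 5′ to 3′ on the gene's strand. Capitals mark the sterol element TCACNCCAC, the NF-Y box CCAAT and the GC box GGGCGG, each on either strand.
Hmgcs1 (chr13:119690201-119690350, plus strand): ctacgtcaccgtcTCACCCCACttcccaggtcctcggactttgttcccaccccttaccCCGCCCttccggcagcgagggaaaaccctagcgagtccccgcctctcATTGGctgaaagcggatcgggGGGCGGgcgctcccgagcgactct
Nsdhl (chrX:72918371-72918520, plus strand): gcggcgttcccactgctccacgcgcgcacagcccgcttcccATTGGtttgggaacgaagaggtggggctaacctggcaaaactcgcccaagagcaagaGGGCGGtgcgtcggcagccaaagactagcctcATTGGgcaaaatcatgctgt
Msmo1 (chr8:64733579-64733728, minus strand): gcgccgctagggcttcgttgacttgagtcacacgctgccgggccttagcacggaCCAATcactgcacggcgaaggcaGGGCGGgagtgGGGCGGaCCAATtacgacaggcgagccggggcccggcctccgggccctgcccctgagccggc
Sc5d (chr9:42264301-42264450, minus strand): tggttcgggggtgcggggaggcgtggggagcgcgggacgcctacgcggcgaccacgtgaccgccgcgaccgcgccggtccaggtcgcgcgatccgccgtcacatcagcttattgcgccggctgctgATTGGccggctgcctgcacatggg
Insig1 (chr5:28071262-28071411, plus strand): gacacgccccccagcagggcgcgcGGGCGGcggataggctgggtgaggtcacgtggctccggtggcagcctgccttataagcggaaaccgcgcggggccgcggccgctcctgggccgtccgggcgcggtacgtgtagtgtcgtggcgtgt
Acat2 (chr17:12960726-12960875, minus strand): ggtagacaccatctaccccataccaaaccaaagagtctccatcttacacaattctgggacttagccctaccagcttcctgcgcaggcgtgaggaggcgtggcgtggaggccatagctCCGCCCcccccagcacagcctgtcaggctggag
Insig2 (chr1:121332590-121332739, minus strand): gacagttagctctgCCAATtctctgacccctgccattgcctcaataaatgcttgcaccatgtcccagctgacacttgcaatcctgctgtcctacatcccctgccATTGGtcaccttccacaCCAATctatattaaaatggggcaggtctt

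Promoters of 250 bases before to 50 bases after the start were found for 24 of the 28 genes, 31 promoters in all. Sqle, Fdft1, Fdps and Stard4 had no entry, and for Insig2 the sequence above is the first of 3 listed promoters. The sterol element TCACNCCAC, searched on both strands, was found in 1 of the 24 genes, Hmgcs1, where its first base lies at -137 from the start. It was found in 1.44% of all 27025 genes with such a promoter. The NF-Y box CCAAT was found in 21 of 24 genes (87.5%), against 41.1% of all genes and 42.9% of the 9208 genes that were tested for expression and had a promoter. The GC box GGGCGG was found in 19 (79.2%), against 38.2% of all and 67.8% of tested genes, and the E-box CACGTG in 6 (25%), against 8.09% and 11.9%. These 4 motifs do not contain one another. A match describes the letters of this window and is no evidence of binding.

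The deposited tables hold group means, from which whole reads per library were recovered. The libraries of a group cannot be tied to the replicate numbers of the labels and carry letters instead, a for the largest size factor of the group and c for the smallest. Recovered reads per library numbered 7151016 to 8265574 in the normal, 8656091 to 10109964 in the model and 6360760 to 6886372 in the SAR group. The most abundant genes are not included. The genes counted carry 51.2% of the total signal in the normal, 67.8% in the model and 53.4% in the SAR group. These read numbers therefore cannot rank the groups by depth. Library c differed from its 2 companions in both the normal and the model group. Normal libraries a and b correlated at 0.98 in log2 values over 11545 genes, which are no independent replicates, and c correlated with them at 0.928 and 0.92. In the model group the values were 0.981 for a and b, and 0.93 and 0.944 with c. Between SAR libraries they ranged from 0.964 to 0.972. In normal library c the median log2 difference from the other normal libraries was 4.96 over 6 neutrophil markers and -5.24 over 6 male-biased liver genes. In that library the 28 sterol genes differed by a median of 0.02, with single genes apart in both directions. It was the highest normal library for 12 of the 28 and the lowest for 12. Over the 11545 genes it was the highest for 4663 and the lowest for 4585. The 8 genes from lanosterol to cholesterol differed by a median of -0.33 there, and it was the lowest for 6 of them. In model library c the 6 cholangiocyte markers differed by -2.65, the 6 Kupffer cell markers by 1.17 and the 6 neutrophil markers by 1.24, and the sterol genes by 1.31. The 4 hepatocyte markers that could be split in the model group differed by 0.85 in that library.

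The liver label was checked against its markers. All 8 hepatocyte markers were present, Alb at a mean of 842230 normalised reads in the normal and 738902 in the model group in the authors' deposited table. There the fold of model over normal was 0.877 for Alb, 0.806 for Ttr, 0.637 for Apoa1 and 0.53 for Glul. It was 0.392 for Hnf4a, 0.288 for Cyp2e1, 0.224 for Tat and 0.155 for Cps1. The authors' adjusted p was under 0.05 for all of these but Alb, Ttr and Glul. Hnf4a, the hepatocyte marker that could be split among all 9 libraries, stood at 12989 to 14136 normalised reads in normal, 4574 to 5725 in model and 11392 to 13694 in SAR libraries. Other cell types moved with the groups. Summed over 6 markers each, lipid-associated macrophage genes stood at 637 to 1087, 11112 to 18808 and 2656 to 4171 normalised reads in normal, model and SAR libraries. Stellate cell and fibroblast genes stood at 1011 to 3831, 10057 to 22563 and 3379 to 6077. Cholangiocyte genes stood at 116 to 217, 255 to 1464 and 131 to 320. No marker of these lists was at 0 in all libraries of a group. In bulk liver, fewer cells of a type and less RNA per cell cannot be told apart, and the part of cell makeup in the sterol results was not tested.

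How sterol genes differed with the MCD diet was asked by comparing model with normal liver. Genes of the pathway moved in both directions: 4 synthesis enzymes rose (Hmgcs1, Sqle, Mvd and Nsdhl), and 3 others fell (Hsd17b7, Tm7sf2 and Ebp), as did Insig2, Scap, Abca1 and Lcat. Thus 4 of 28 genes rose and 7 fell, and 17 did not pass the test, which was limma on log2(value + 1) with Benjamini-Hochberg adjustment over all genes and a threshold of 0.05. Of all 12563 genes tested, 20.0% rose and 19.1% fell, so the share that rose among the sterol genes was below the background and the share that fell somewhat above it. The median log2 fold change was 0.12 over the 28 genes and 0.03 over all genes. The authors' deposited table gave an adjusted p under 0.05 for 7 of the 28 sterol genes, a share below the 29.6% of all genes with an overall mean of at least 10. Sqle, Mvd, Nsdhl and Tm7sf2 were not among the 7. Hmgcs1, Insig2, Scap, Abca1 and Lcat kept the call whichever library was left out.

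The SAR group was compared with the model group, both on the MCD diet. Tm7sf2, Ebp, Scap and Lcat rose, and none of the 28 fell. The 4 that rose among 28 stand beside 13.2% of all 12470 genes tested, and 16.2% of all genes fell. The median log2 fold change was 0.66 over the sterol genes and 0.01 over all genes. The authors' deposited table called the same 4 of the 28 genes, a share below the 21.2% of all genes that it called in either direction. This comparison shares its model libraries with the previous one, so the 2 are not independent. The count also rested on model library c: without it 19 of the 28 genes rose and none fell, as described below.

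The SAR group was then set against the normal group, after the 2 tables were brought to a common scale. Here 8 genes rose, of which 7 are synthesis enzymes (Acat2, Hmgcs1, Fdft1, Sqle, Msmo1, Nsdhl and Sc5d) and the other is Insig1, and Abca1 fell. Of all 11604 genes tested only 1.71% rose and 1.82% fell. The median log2 fold change was 0.43 over the 28 genes and 0.76 over the 19 enzymes. Every SAR library lay above every normal library for 16 of the 28 genes, 13 of them enzymes, against 16.8% of all genes, and below for 4 (Hsd17b7, Insig2, Scap and Abca1), against 16.3%. All 8 remaining genes overlapped. None of the 9 calls held whichever library was left out, since the count of genes that rose was 0 without normal library b or without SAR library a, 2 without normal library a, SAR library b or SAR library c, and 11 without normal library c. Over all genes these fits called between 6 and 1083. Without normal library c, 4.65% of all 11580 genes tested rose and 4.7% fell, and 4 sterol genes fell. Calls given below for single genes without normal library c stand beside these larger shares.

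**Figure D1:**
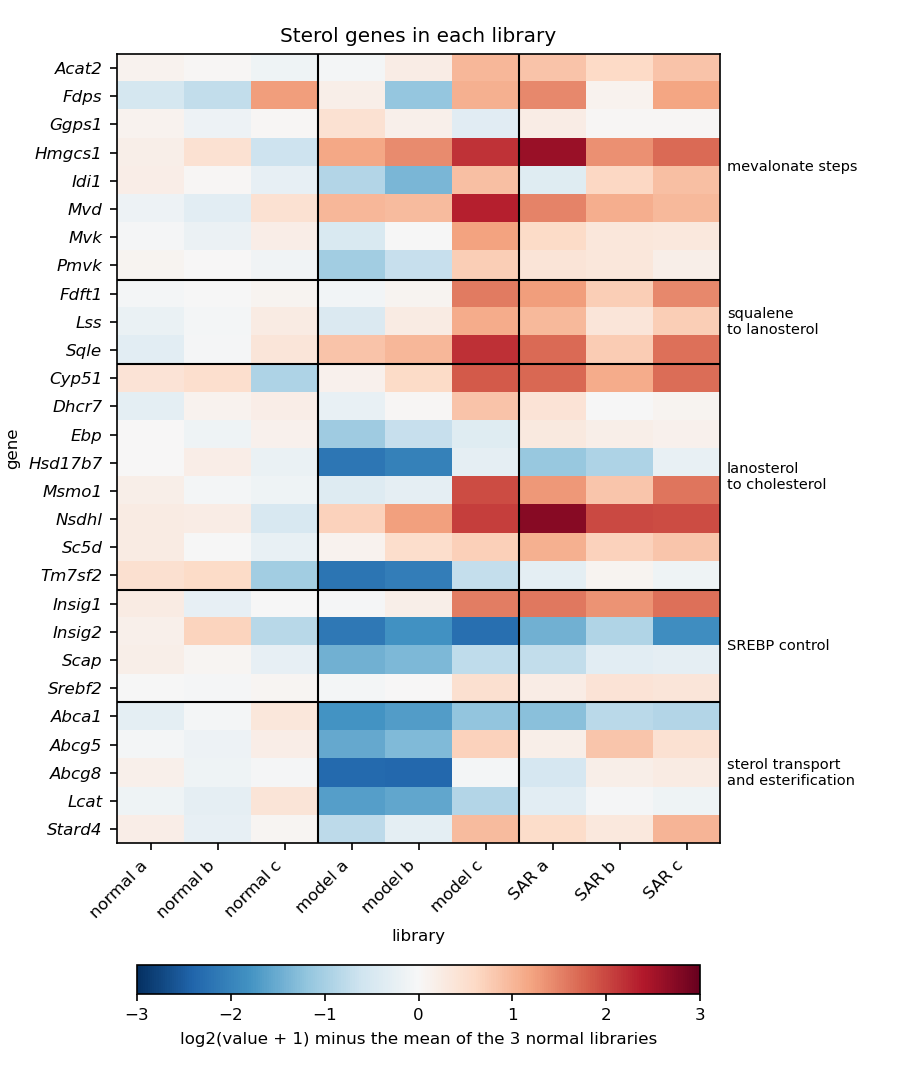
Heatmap of the 28 sterol genes (rows, by role) in the 9 libraries (columns). Colour gives log2(value + 1) minus the mean of the 3 normal libraries. Model library c is the highest model library in 26 of the 28 rows, and for 5011 of the 11545 genes tested in all comparisons.

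**Figure D2:**
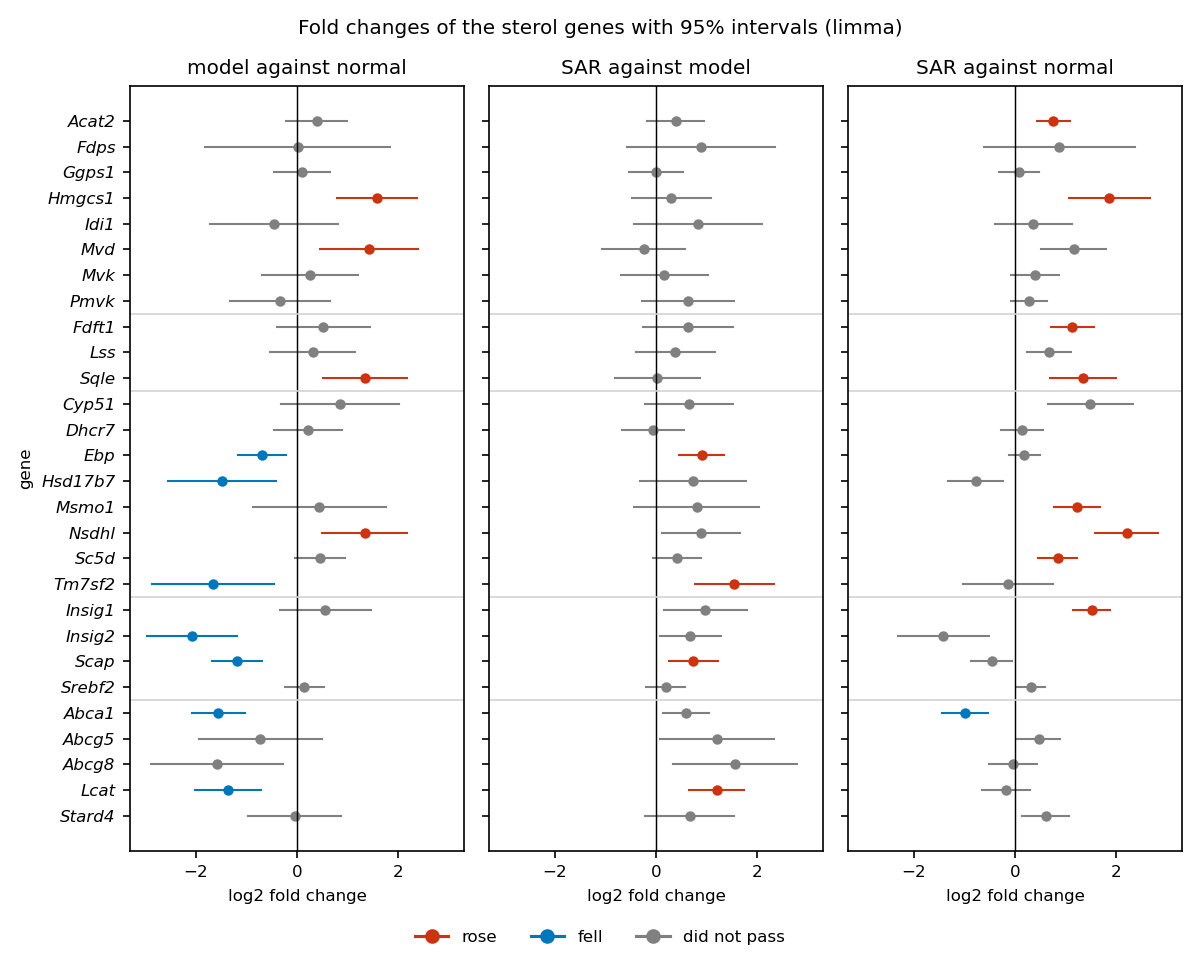
Log2 fold change of each gene (points, bars are 95% intervals from limma) in the 3 comparisons, with 3 libraries per group. Filled red and blue mark genes that rose or fell, 4 and 7 in model against normal, 4 and 0 in SAR against model, and 8 and 1 in SAR against normal.

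Among the mevalonate genes the clearest difference was in Hmgcs1, which makes the HMG-CoA from which mevalonate is formed. Hmgcs1 (ENSMUSG00000093930) stood at 963, 1168 and 556 normalised reads in normal libraries a, b and c, at 1919, 2295 and 3814 in the model libraries and at 5141, 2217 and 2766 in the SAR libraries. Model and SAR libraries lay above every normal library and overlapped each other. It rose by a log2 fold change of 1.58 in the model group (SE 0.34, limma adjusted p = 0.0104) and stood 1.87 above normal in the SAR group (SE 0.35, limma adjusted p = 0.0365). The SAR call was lost when any library other than normal c was left out (limma adjusted p from 0.0761 to 0.105). Below, a value in brackets after a library that was left out is the limma adjusted p without it, and a pair of values is the log2 fold change and that p. Between SAR and model the difference was 0.30 (95% interval -0.48 to 1.09). In the gene annotation 12.1% of its exon bases are shared with an antisense gene, and no strand setting is stated.

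Mvd, which decarboxylates mevalonate diphosphate, rose in the model group from 42.8, 38.3 and 66.1 normalised reads to 95.7, 93.1 and 245 (log2 1.43, SE 0.42, limma adjusted p = 0.0306), and stood at 135, 102 and 93.9 with SAR. Every model and SAR library lay above the normal ones, and SAR against normal passed only without normal library c (1.39, 0.0193) of the fits run. The model call was lost without normal library a (limma adjusted p = 0.0897), normal library b (0.0872) or model library a (0.0539). Acat2, the thiolase that joins acetyl-CoA units, stood at 283, 270 and 244 normalised reads in normal, 257, 309 and 526 in model and 483, 403 and 482 in SAR libraries. It was higher in SAR than in normal libraries without overlap (log2 0.76, SE 0.14, limma adjusted p = 0.0345). That call was lost when any library other than normal c was left out (limma adjusted p from 0.0824 to 0.12).

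The mevalonate kinases and the isoprenoid enzymes passed no test with all libraries. Without model library c, Idi1 (-1.13, 0.0206) and Pmvk (-0.87, 0.014) passed in model against normal, and both passed in SAR against model (1.5, 0.011 and 1.16, 0.00226). Mvk and Pmvk, the kinases that phosphorylate mevalonate in turn, stood at 71.8 to 93 and 153 to 176 normalised reads in normal libraries and at 101 to 122 and 188 to 216 in SAR libraries. Model libraries a and b held 59 and 80.4 normalised reads of Mvk and 79.7 and 102 of Pmvk, and model library c held 187 and 278. Idi1, the isomerase of the isoprenoid unit, stood at 48.6 and 33.9 in model libraries a and b and at 168 in c, against 75.9 to 104 in normal and 69.6 to 168 in SAR libraries. Ggps1, which makes the geranylgeranyl chain for protein prenylation, was nearly level, between 106 and 186 normalised reads in all 9 libraries, and its log2 differences were 0.10, 0.00 and 0.08 in the 3 comparisons. Fdps, the farnesyl diphosphate synthase, gave only 6 to 31 reads per library, and 26.7% of its exon bases are shared with another gene on the same strand, so its level is imprecise.

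The 3 enzymes from farnesyl diphosphate to lanosterol lay above normal with SAR in every library. Sqle (ENSMUSG00000022351), the squalene epoxidase, stood at 140, 170 and 226 normalised reads in the normal libraries, 319, 350 and 800 in the model libraries and 572, 296 and 553 in the SAR libraries. All model and SAR libraries exceeded the normal ones. It rose in the model group (log2 1.34, SE 0.36, limma adjusted p = 0.0221) and was higher in SAR than in normal liver by a like amount (1.35, SE 0.28, limma adjusted p = 0.0452). The model call was lost without normal library a (limma adjusted p = 0.0768) or b (0.0602), and the SAR call without any library other than normal c (0.0597 to 0.146).

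Fdft1 (ENSMUSG00000021273), the squalene synthase, stood at 438, 454 and 487 normalised reads in the normal libraries and 1098, 770 and 1256 in the SAR libraries. Its model libraries were split: a and b at 431 and 484 lay near the normal libraries, and c at 1364 exceeded every other library. SAR stood above normal by 1.13 (log2, SE 0.18, limma adjusted p = 0.0298). Leaving out normal library a (0.1) or b (0.101), or SAR library a (0.095) or c (0.0668), ended this call. In the annotation 18.3% of the exon bases of Fdft1 are shared with the cathepsin gene Ctsb on the opposite strand. Lss, the cyclase that closes the lanosterol ring, stood at 221 to 300 in normal and 328 to 493 in SAR libraries, which do not overlap, and did not pass (log2 0.67, SE 0.19, limma adjusted p = 0.0822). It passed without normal library c (0.79, 0.0359), and against the model group without model library c (0.78, 0.0262).

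Of the 8 enzymes that turn lanosterol into cholesterol, 1 rose, 3 fell and 4 did not pass in model against normal, and 3 rose and 5 did not pass in SAR against normal. Nsdhl (ENSMUSG00000031349), a dehydrogenase that removes sterol methyl groups, had the largest SAR-to-normal log2 fold change of the 28 genes. It stood at 181, 177 and 109 normalised reads in the normal libraries, 246, 358 and 645 in the model libraries and 1019, 601 and 592 in the SAR libraries. The normal libraries lay below all others, and SAR and model overlapped. It rose by 1.34 in the model group (SE 0.36, limma adjusted p = 0.0231, lost without model library b at 0.0646). With SAR it was 2.20 above normal (SE 0.27, limma adjusted p = 0.0187), which was lost without normal library b (0.0644), SAR library a (0.0611) or SAR library b (0.0573).

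Msmo1 (ENSMUSG00000031604), the oxidase that starts the removal of those methyl groups, was split among the model libraries, at 325 and 350 normalised reads in a and b and 1655 in c. Its normal libraries held 481, 406 and 387 and its SAR libraries 1040, 749 and 1290. SAR libraries lay above normal without overlap (log2 1.22, SE 0.20, limma adjusted p = 0.0302). Of the fits with a library left out, only that without normal c kept this call, and the others gave 0.0508 to 0.103. The call was also lost with all 9 libraries in 1 fit (limma adjusted p = 0.169). Sc5d (ENSMUSG00000032018), a desaturase of the last steps, stood at 2411, 2024 and 1745 in normal, 2189, 2961 and 3352 in model and 4253, 3321 and 3611 in SAR libraries. It was higher with SAR than in normal liver (log2 0.84, SE 0.17, limma adjusted p = 0.0388, and 0.0825 to 0.122 without any one library other than normal c). Cyp51, the lanosterol demethylase, stood at 667, 706 and 263 normalised reads in normal libraries and 1659, 1076 and 1599 in SAR libraries. These do not overlap, and the test did not pass (log2 1.49, SE 0.36, limma adjusted p = 0.0629), but it did without normal library c, the lowest one (1.03, 0.0151).

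Tm7sf2, Ebp and Hsd17b7 went the other way in the model group. Tm7sf2 (ENSMUSG00000024799), a sterol reductase, stood at 1481, 1570 and 509 normalised reads in the normal libraries, 230, 251 and 641 in the model libraries and 862, 1111 and 969 in the SAR libraries. SAR libraries all lay above the model libraries, while normal library c fell within the model range. It fell in the model group (log2 -1.66, SE 0.52, limma adjusted p = 0.0386) and rose with SAR (1.55, SE 0.34, limma adjusted p = 0.0122). The fall was lost without normal library a (0.121) or b (0.114) or model library a (0.135) or b (0.123), and the rise without model library b (0.0523) or SAR library b (0.0551). Without normal library c, SAR stood below normal (-0.66, 0.0296). Of its exon bases 12.1% are shared with Vps51 on the same strand.

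Ebp (ENSMUSG00000031168), the sterol isomerase, was the most evenly measured of these. It stood at 2562, 2319 and 2768 normalised reads in the normal libraries, 1220, 1577 and 1987 in the model libraries and 3105, 2890 and 2773 in the SAR libraries, with the model libraries below all others. It fell in the model group (log2 -0.70, SE 0.20, limma adjusted p = 0.0297) and rose with SAR (0.90, SE 0.20, limma adjusted p = 0.0119). The fall was lost without any library other than model c (0.0602 to 0.0938), and the rise without model library b (0.0512).

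Hsd17b7, which reduces a sterol ketone in the same chain, stood at 1021, 1170.5 and 881 normalised reads in normal, 227, 247 and 846 in model and 461, 535 and 869 in SAR libraries. It fell in the model group (log2 -1.49, SE 0.46, limma adjusted p = 0.0374). Leaving out normal library a (0.094) or b (0.1) or model library a (0.13) or b (0.125) ended this call. SAR libraries stayed below every normal library, without passing (limma adjusted p = 0.0907), and it passed without normal library c (-0.89, 0.0498). Against the model group it passed without model library c (1.33, 0.00231). Dhcr7, whose enzyme makes cholesterol in the last step, stood at 311 to 438, 325 to 695 and 378 to 508 in the 3 groups and passed no test.

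**Figure D3:**
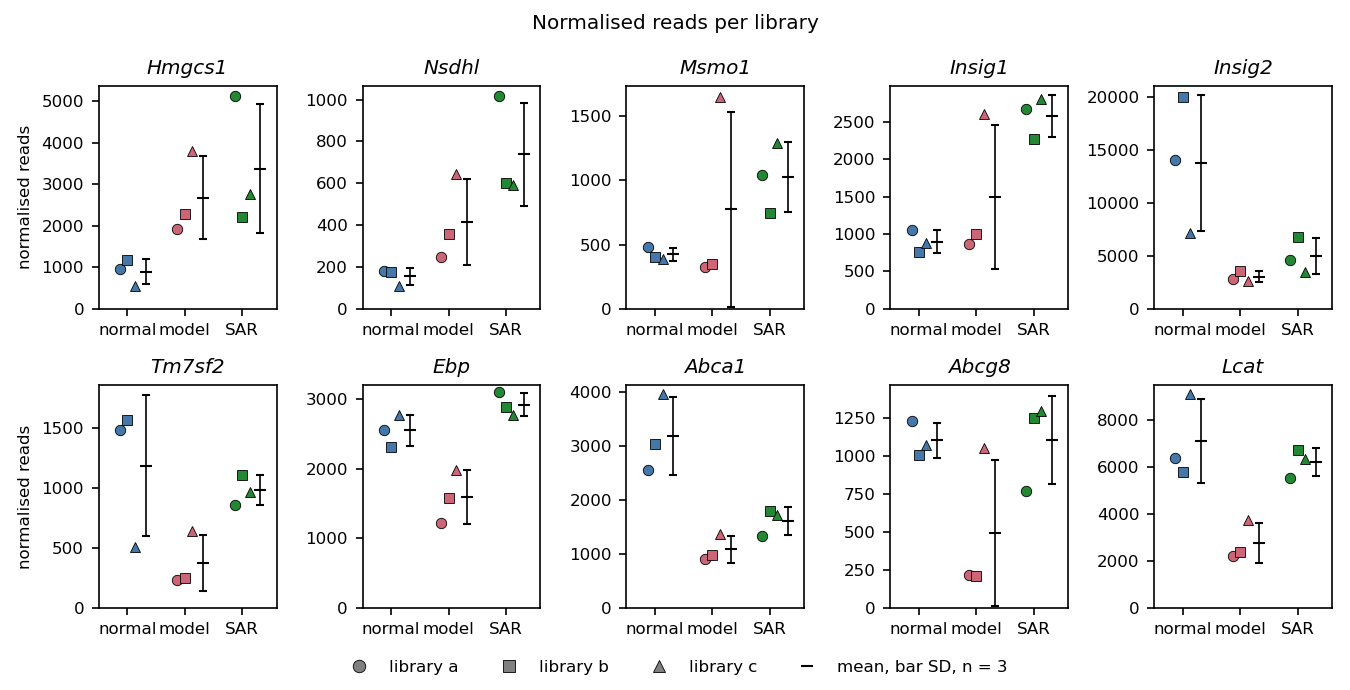
Normalised reads of 10 sterol genes in each library (circle a, square b, triangle c) with the group mean and SD beside them, n = 3. The model triangle stands apart from the other model libraries for Msmo1, Insig1 and Abcg8, and the normal libraries of Insig2 lie above all others.

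The controllers of SREBP2 differed among themselves. Insig1 (ENSMUSG00000045294), which is itself a sterol-responsive target gene, stood at 1056, 758 and 886 normalised reads in the normal libraries, 870, 1003 and 2606 in the model libraries and 2673, 2273 and 2813 in the SAR libraries. SAR libraries lay above every normal library, and model library c was near them. With SAR it was 1.51 above normal (log2, SE 0.16, limma adjusted p = 0.0133). Leaving out normal library b (0.0596) or SAR library a (0.0607) ended this call.

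Insig2 (ENSMUSG00000003721), the second Insig form, known in liver to be lowered by insulin, had another pattern. Normal libraries held 14117, 20003 and 7133 normalised reads, model libraries 2855, 3584 and 2617 and SAR libraries 4639, 6791 and 3489, so that every normal library lay above all others. Insig2 fell in the model group by 2.08 on the log2 scale (SE 0.38, limma adjusted p = 0.00644). The difference of SAR from normal was -1.42 (SE 0.39, limma adjusted p = 0.0773) and passed without normal library c (-1.83, 0.00887). Per kilobase of exon, Insig2 stood at 11.9, 23.5 and 7.17 times Insig1 in the normal libraries, at 2.92, 3.18 and 0.895 times in the model libraries and at 1.55, 2.66 and 1.10 times in the SAR libraries. The lowest normal ratio thus exceeded the highest ratio of the diet-fed groups.

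Scap (ENSMUSG00000032485), the escort of SREBP2, stood at 1398, 1288 and 1039 normalised reads in normal, 455, 481 and 731 in model and 735, 995 and 1015 in SAR libraries. These 3 ranges do not overlap, but their edges lie close, at 731 and 735 and at 1015 and 1039. SAR against normal did not pass (log2 -0.46), nor did it with any library left out (limma adjusted p from 0.0601 to 0.342). Scap fell in the model group (log2 -1.18, SE 0.21, limma adjusted p = 0.00611) and rose with SAR (0.74, SE 0.21, limma adjusted p = 0.0324). The rise was lost without model library a (0.114) or b (0.119) or SAR library b (0.115) or c (0.109), and 13.2% of the exon bases are shared with a gene on the opposite strand. Srebf2, the gene of SREBP2 itself, differed little, at 609 to 649, 600 to 873 and 728 to 829 in the 3 groups, and passed no test. Every SAR library of Srebf2 lay above every normal library (log2 0.32).

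Of the 5 genes that move or esterify cholesterol, Abca1 and Lcat fell in the model group. Abca1 (ENSMUSG00000015243), the exporter to high-density lipoprotein, stood at 2556, 3033 and 3968 normalised reads in the normal libraries, 903, 982 and 1369 in the model libraries and 1323, 1798 and 1716 in the SAR libraries. Every normal library lay above the diet-fed ones, and SAR library a lay just below model library c. It fell in the model group (log2 -1.55, SE 0.23, limma adjusted p = 0.00317). With SAR it was still below normal (-0.99, SE 0.20, limma adjusted p = 0.0401, and 0.0824 to 0.121 without any one library other than normal c). Against the model group its difference was 0.58 (limma adjusted p = 0.0565), and it passed without model library c (0.76, 0.00655) or SAR library a (0.72, 0.0423).

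Lcat (ENSMUSG00000035237), the plasma enzyme that esterifies cholesterol in high-density lipoprotein, stood at 6373, 5769 and 9105 normalised reads in normal, 2197, 2374 and 3756 in model and 5535, 6723 and 6347 in SAR libraries. Model libraries lay below all others, and the normal and SAR ranges overlapped. It fell in the model group (log2 -1.36, SE 0.28, limma adjusted p = 0.00923) and rose with SAR (1.20, SE 0.24, limma adjusted p = 0.00777), and it kept both calls whichever library was left out. Its difference between SAR and normal was -0.19 (95% interval -0.66 to 0.29).

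Abcg5 and Abcg8, the paired half-transporters that send sterols into bile, were split within the model group. Abcg8 stood at 1229, 1005 and 1072 normalised reads in the normal libraries, 218, 212 and 1047 in the model libraries and 771, 1246 and 1295 in the SAR libraries. Abcg5 stood at 813, 764 and 964, then 291, 337 and 1352.5, then 952, 1495 and 1150. Model libraries a and b lay far below every other library for both genes, and c did not. In model against normal the log2 differences were -1.59 (limma adjusted p = 0.0565) and -0.72 (0.298), and without model library c both passed, at -2.35 (0.000362) and -1.43 (0.00114). Abcg8 also passed with all 9 libraries in 1 fit (-1.59, 0.0287). The genes are neighbours and share 82 exon bases. Stard4, which carries sterol between membranes, stood at 390 to 528, 268 to 888 and 571 to 934 and passed no test with all libraries. Against the model group it passed without model library c (1.16, 0.00326).

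Model library c was the highest model library for 26 of the 28 genes and for 18 of the 19 enzymes, Insig2 and Ggps1 being the exceptions. Over the 11545 genes tested in all comparisons it was the highest for 5011. Its values lay a median of 1.31 (log2) above the other model libraries over the 28 genes and 0.03 over all genes. Without it, 19 of the 28 genes rose with SAR, among them 12 enzymes, and none fell, while over all genes 20.4% rose and 21% fell. The median log2 fold change was then 1.11 over the 28 genes. Among those that did not pass with model library c were Insig1 (1.46 without it, limma adjusted p = 0.000179), Msmo1 (1.56, 0.000477), Fdft1 (1.15, 0.00195), Cyp51 (1.14, 0.00273), Abcg5 (1.90, 0.000121) and Abcg8 (2.31, 7.81e-05). Abcg8 also passed with all 9 libraries in 1 fit (1.54, 0.0457). Against normal liver, 4 genes rose and 11 fell without it, Idi1, Pmvk, Abcg5 and Abcg8 being added to those that fell, and over all genes 22.7% rose and 23.4% fell. In these fits the 2 remaining model libraries supply the spread of their group. Why this library differs was not tested.

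**Figure D4:**
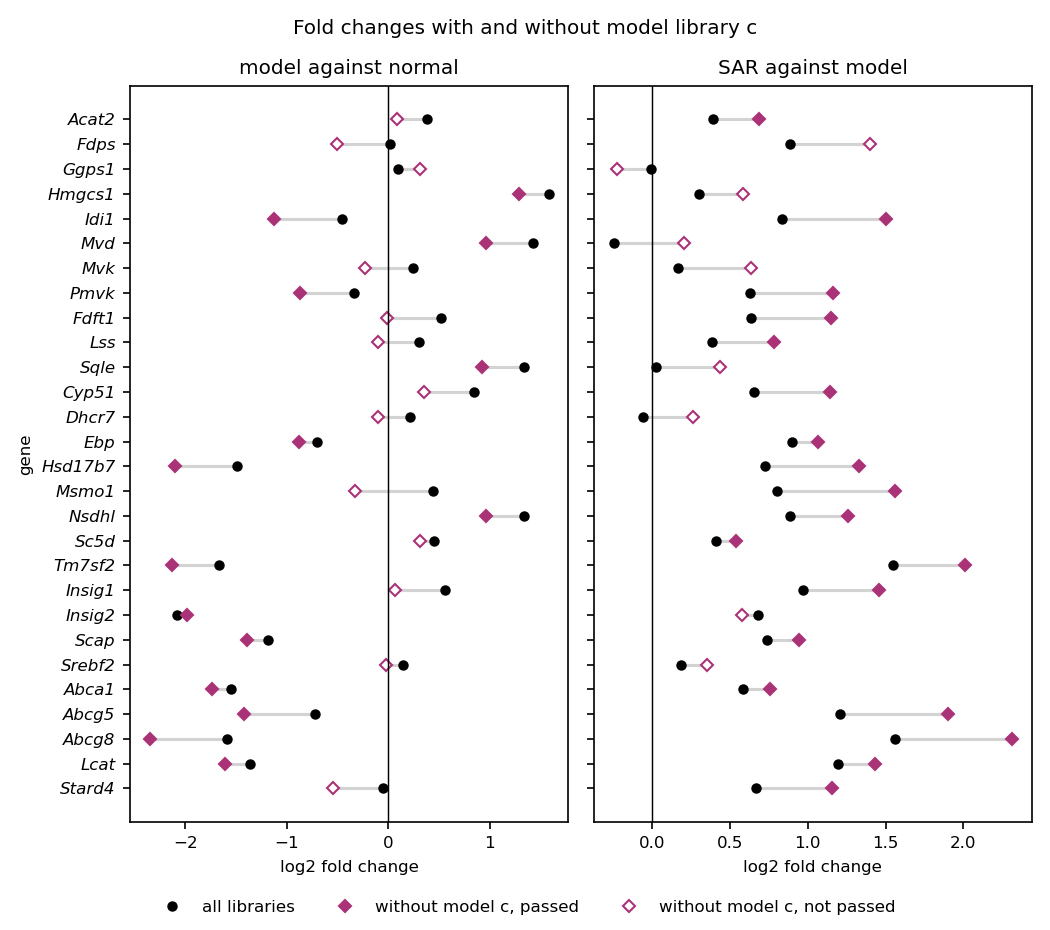
Log2 fold change of each gene with all libraries (black) and without model library c (diamonds, filled where the test passed). In SAR against model most diamonds lie to the right of the black points, and 19 are filled.

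Per kilobase of exon, which allows levels of different genes to be compared, Lcat, Insig2 and Ebp were the highest of the 28 genes in each group, in this order. Lcat stood at 5277, 2068 and 4621 normalised reads per kilobase in the normal, model and SAR groups, Insig2 at 3959, 869 and 1432, and Ebp at 1104, 690 and 1265. Fdps was the lowest, at 3.77, 3.72 and 6.35. Within the SAR group, library a was the highest for 14 of the 19 enzymes and library b the lowest for 11, and the medians of their differences from the other SAR libraries were 0.26 and -0.26 (log2). Over the 11545 genes tested in all comparisons, SAR library a was the highest for 4220 and SAR library b the lowest for 3635.

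Of 46 further genes of sterol uptake, storage, regulation and breakdown, 45 were in the tables and 43 were tested. In the model group 6 rose and 14 fell, in SAR against model 7 rose and 4 fell, and in SAR against normal 1 rose and 1 fell. Over all genes these shares were 20.0% and 19.1%, 13.2% and 16.2%, and 1.71% and 1.82%, so the share that fell in the model group lay above the background, and those that rose in the model group or fell with SAR lay below it. Cyp7b1, an oxysterol hydroxylase of the alternative bile acid route, fell by 3.81 on the log2 scale in the model group (SE 0.61, limma adjusted p = 0.00401), from 2952 ± 2032 to 165 ± 34 normalised reads (SD, n = 3), and rose with SAR to 2169 ± 1054 (3.62, limma adjusted p = 0.000374). Cyp7a1, whose enzyme limits the rate of bile acid synthesis, fell as well, from 600.1 ± 88.2 to 142 ± 112 (-2.33, limma adjusted p = 0.00835), and the oxidoreductase Por by 1.72 on the log2 scale (limma adjusted p = 0.0369). Cyp27a1, which oxidises the sterol side chain, rose with SAR from 2027 ± 855 to 6583 ± 1159 (1.77, limma adjusted p = 0.004).

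Soat1, Gramd1b and Abcg1 went the other way. Soat1, which esterifies cholesterol for storage and is strong in macrophages, rose in the model group, from 83.4 ± 18.8 to 373 ± 34.1 normalised reads (log2 2.17, limma adjusted p = 0.000974) and fell with SAR to 141 ± 10.4 (-1.40, limma adjusted p = 0.00109). Gramd1b, a carrier of membrane cholesterol, rose by 2.39 in the model group (limma adjusted p = 0.00278) and fell by 2.03 with SAR (limma adjusted p = 0.00721), and Abcg1, a macrophage sterol exporter, fell by 1.47 with SAR (limma adjusted p = 0.00133). Their levels moved with the summed lipid-associated macrophage markers given above, whose part was not tested. The 6 Kupffer cell markers, of resident macrophages, had another pattern. Summed, they stood at 5168 to 8323, 3475 to 6621 and 2147 to 4211 normalised reads in normal, model and SAR libraries. In SAR against normal, Srebf1, which drives fatty acid synthesis, was higher (1.28, limma adjusted p = 0.0333). Mylip, a sterol-induced ubiquitin ligase, was lower (-1.61, limma adjusted p = 0.0388). Calls for Srebf1 and Mylip with a library left out are not given here. Over all genes, SAR against normal called 410 with all libraries, 6 without SAR library a and 1083 without normal library c.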

How the data were processed

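The 9 liver libraries were made from Trizol RNA with a NEBNext Ultra kit, per the labels' protocols. Reads were placed on mm9, per the submitters' processing notes; aligner, counter and annotation: not given in the sources used here. Per the file headers, the authors deposited a table for each of 2 comparisons, with the signal of each gene as a group mean of reads divided by DESeq size factors, the ratio of the means as a fold, its log2 value, and the p-value and adjusted p-value of their test. Reads per library were recovered from the group means, each a sum of 3 whole read numbers weighted by library constants. In the normal group 16194 of 16313 means tried had a single solution and 0 had none; of 1000 means moved slightly, 0 were solved. Model reads solved in each table alone were identical for 16072 of 16072 genes, and 16423 of 16521 genes were recovered in all 9 libraries. Group means above 40000 were not tried.

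Each value is a library's reads over the authors' size factor, with SAR values multiplied by 1.09, the median ratio of the shared model column. SAR against normal used median-of-ratios size factors computed from the recovered reads. Genes with a mean of at least 10 were tested with limma 3.58.1 (trended variance, two-sided) on log2(value + 1) with Benjamini-Hochberg adjustment over all genes, in R 4.3.3, and the scripts were tested on simulated data. The log2 scale understates changes of genes with few reads. Alternatives were a pseudocount of 5, no filter, other scaling, other variance models, all 9 libraries in 1 fit, each library left out and the authors' test. The 28 genes, the other lists and the tests were chosen with earlier results of these data known. All 28 genes are named, and of the further sterol genes the 5 with the largest log2 fold change past the threshold in each comparison. No sample was paired. Exon overlaps come from the GRCm38 annotation and promoters from RefSeq.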

Additional observations from a re-analysis of the deposited data

How the results depend on the processing

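No paired analysis was possible because the deposited tables give group means and the recovered libraries carry no replicate numbers. Leaving out each library in turn gave 2428 to 5790 genes called in model against normal (4910 with all libraries), 1544 to 5160 in SAR against model and 6 to 1083 in SAR against normal. Sterol genes that rose numbered 2 to 4, 1 to 19 and 0 to 11 in these comparisons, and those that fell 4 to 11, 0 and 0 to 4. Without a variance trend, SAR against normal called 29 genes, with 1 sterol gene higher and 0 lower. With all 9 libraries in 1 fit it called 546 genes, against 410 in the main fit, with 4 sterol genes higher and 1 lower. That fit lost the SAR-against-normal calls of Acat2 (limma adjusted p = 0.0835), Fdft1 (0.0979), Msmo1 (0.169) and Sqle (0.063). The authors' test called 1 sterol gene higher and 6 lower in model against normal. It called 29.6% of all genes with an overall mean of at least 10 in either direction. Leaving out normal library c and model library c together was an alternative chosen after seeing the data. In model against normal 13 of the 27 sterol genes tested then fell and 4 rose. Of all 12647 genes tested in that fit, 28.1% fell and 29.9% rose. There Msmo1 reversed from 0.44 to -0.39 (limma adjusted p = 0.0427). The cause was not tested. Without a trend, calls were also lost for Hsd17b7 (limma adjusted p = 0.0686) and Tm7sf2 (0.0703) in model against normal and Scap (0.0709) in SAR against model. With voom weights Mvd (0.0735) in model against normal and Sqle (0.0536) in SAR against normal were lost. A pseudocount of 5, no filter and upper-quartile scaling kept all 24 calls of the sterol genes. Fdps rests on few reads, and small differences in the other low genes were not detectable at this depth.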
